A study of Mus musculus with 24 samples.

Results

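The effect of *Cbfb* loss in unstimulated lymphoid progenitors (LPs) was read in the first of 2 QuantSeq experiments. Its members are 6 of the 24 samples of the series, chosen by their labels: 3 libraries of LPs that carried sgCbfb and 3 that carried sgControl, all grown on OP9 stroma without Notch ligand. Both groups were Cas9-LP lines, which lack intact *Ebf1* and express Cas9 from a knock-in at Rosa26. These lines began as progenitors in the fetal liver of mice that carried both changes. They were kept with SCF, Flt3L and IL-7 on OP9 cells that had been treated with mitomycin C. Retroviral vectors brought in an sgRNA together with the surface tag hNGFR. The sgControl guides are directed at luciferase, a gene the cells lack, and the sgCbfb guides at *Cbfb*. After 5 days, hNGFR+CD45+ cells were sorted, which keeps cells that took up the vector whether or not *Cbfb* was edited in them. The labels do not say whether the replicates were separate cultures or lines, so the P values measure the spread between these samples. QuantSeq starts at the poly(A) tail, so its reads come from the 3′ ends of transcripts.

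The 6 libraries held between 1401315 and 1743320 reads on genes, with a median of 1585996.5. Values are in CPM, the reads of a gene scaled to a common total of reads on genes for each library. A count of 0 in a library allowed up to 1.72 to 2.14 CPM, taken as 3 reads, which covers counting error only since the reads carry no molecular identifiers. A group is at the floor where no library has more than 3 reads, and a fold against it is a bound (at least so many fold). Since the use of strand in counting is not stated, genes whose exons overlap on opposite strands, as *Ccr9*, *Bcl11a* and *Cish* do with antisense genes, cannot be told apart from these. A 0 in all 6 libraries does not always mean that a gene was silent: 5 mitochondrially encoded mRNAs (*mt-Co2*, *mt-Co3*, *mt-Atp6*, *mt-Atp8* and *mt-Nd4l*) are at 0 too, and how such values arose is not stated. Between 12718 and 13134 genes had reads in a library, the most abundant gene (*CT010467.1*) took 7.94% to 10.55% of the reads, and mitochondrially encoded genes took 7.02% to 7.75%. Across 8238 genes, which are not independent replicates, Pearson's r of log2 values was 0.949 to 0.960 between libraries of the same group and 0.911 to 0.929 between groups. Every library was closer to its own group than to the other.

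CBFβ, the product of *Cbfb*, does not bind DNA. It pairs with RUNX1, RUNX2 or RUNX3, which bind the RUNX motif through their Runt domain, and it raises their affinity for DNA and shields them from degradation. The complexes activate some genes and repress others, and they are needed for the formation of blood stem cells and for T-cell and innate lymphoid development, so removing CBFβ takes the shared partner from all RUNX proteins together.

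Genes that define the labelled cells were read in every library. *Ptprc*, which encodes CD45, was at 698, 615 and 547 CPM in the sgControl libraries and 579, 480.1 and 443 CPM in the sgCbfb libraries, and its groups overlapped. *Flt3*, the receptor for Flt3L, was at 284, 279 and 255 CPM with sgControl and 318, 272 and 191 CPM with sgCbfb, and *Il7r* was at 313, 287 and 225 and 306, 224 and 237 CPM. None of these 3 genes, which were chosen after their values were seen, was called (limma adjusted P of 0.238, 0.958 and 0.888) and the genes of the label were read in both groups. Of later B-lineage genes, *Cd79a*, *Vpreb3*, *Blk* and *Pou2af1* had 0 reads in all 6 libraries. *Ebf1* itself had reads, at 403, 309 and 289 CPM with sgControl and 205, 163 and 173 CPM with sgCbfb, with a limma log2 fold change of -0.87 (adjusted P = 0.00143) that was under the fold threshold for a call. Reads at the 3′ end do not show whether the *Ebf1* message is intact.

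The comparison asks which genes depend on CBFβ in LPs before Notch signalling, in either direction. Of 13239 genes tested with limma, 79 (0.597%) were called lower and 145 (1.1%) higher with sgCbfb, 224 in all (1.69%), where a call needs an adjusted P under 0.05, group means that differ over 2-fold, and over 10 CPM in one of these means. In bulk RNA, fewer cells of a type and less RNA per cell cannot be told apart, for any of these genes. The counts moved with single libraries: 119 genes were called lower without Phase 1 sgControl replicate 3 (cells of the next stage, on OP9 with the Notch ligand DLL4, share the fit), and 88 higher without LP sgCbfb replicate 1. They moved with the method too: without moderated variances 53 were lower and 94 higher, and with only the 2 groups compared in the fit 119 were lower. By adjusted P alone, 144 genes were lower (1.09%) and 233 higher (1.76%). Most genes moved little: among the 8600 with a mean over 10 CPM, 85.1% had a ratio of means within 1.5-fold, the 10th percentile of the log2 fold change was -0.47 and the 90th was 0.49. The median over all tested genes was 0.0, the value beside which the medians of gene lists are read below, as called members are beside the 0.597% lower and 1.1% higher. In each of the 224 called genes the libraries of the groups did not overlap, as held for 17.5% of all tested genes.

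The levels of the called genes follow in part from the threshold of 10 CPM, which a lower gene must pass with sgControl and a higher gene with sgCbfb. The 79 lower genes had a median of 60.2 CPM in sgControl and 18.1 CPM in sgCbfb LPs, and 8 of them ended at the floor. The 145 higher genes started from a median of 14.1 CPM and reached 45.7 CPM, with 59 of them under 10 CPM in sgControl cells and 13 at the floor there. A ratio over 4 was seen for 33 lower and 61 higher genes. Summed over the lower genes, the level was 10476, 9845 and 9177 CPM in the sgControl libraries and 3179, 2896 and 3046 CPM in the sgCbfb libraries. Summed over the higher genes it was 5526, 5195 and 4961 CPM with sgControl and 16549, 15013 and 14604 CPM with sgCbfb. These sums follow from the choice of the genes and are given for their size. Protein-coding genes made up 77 of the lower and 134 of the higher genes, against 83.2% of all tested genes.

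**Figure D1:**
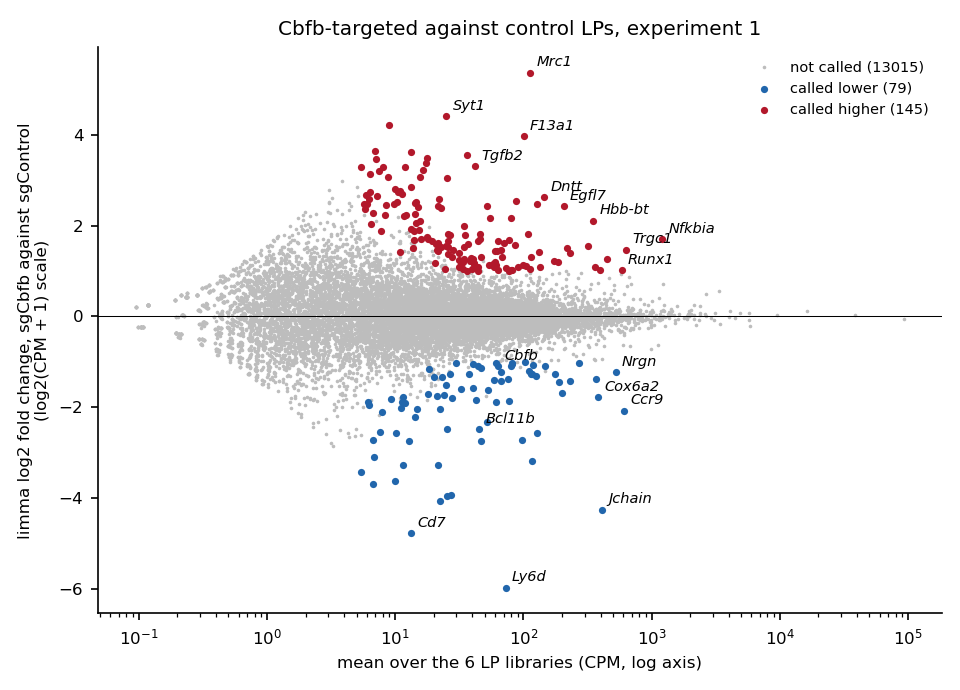
Limma log2 fold change of sgCbfb against sgControl LPs, on the log2(CPM + 1) scale, against the mean level over the 6 libraries in CPM (log axis), 1 point per tested gene. The 79 genes called lower are blue and the 145 called higher are red; they run from -5.97 for *Ly6d* to 5.37 for *Mrc1*.

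Of the genes of the CBF complex, *Cbfb* was called lower and *Runx1* higher. *Cbfb* (chromosome 8, 105170674 to 105217989 on GRCm38) was at 92.7, 91.0 and 75.8 CPM in the sgControl libraries and 45.8, 39.0 and 35.7 CPM in the sgCbfb libraries. Every sgCbfb library lay below every sgControl library, and the fall was 2.15-fold (limma log2 fold change -1.09, adjusted P = 0.00548). Reads at 3′ ends do not show edits at the guide sites, so the level of this mRNA does not measure editing. Without moderated variances the fall was not called. *Runx1*, the most abundant *Runx* mRNA here, was at 456, 351 and 351 CPM with sgControl and 872, 753 and 714 CPM with sgCbfb, a 2.02-fold rise (limma log2 fold change 1.02, adjusted P = 1.33e-05). It stood close to the fold threshold: without LP sgCbfb replicate 1, sgControl replicate 2 or sgControl replicate 3 it was not called, with a log2 fold change down to 0.93 and an adjusted P of at most 0.00032. *Runx2* was at 68.5, 42.1 and 47.5 CPM with sgControl and 49.4, 45.9 and 47.8 CPM with sgCbfb, and *Runx3* at 292, 313 and 254 and 305, 303 and 279 CPM. The groups of both overlapped, and neither was called (adjusted P of 0.939 and 0.939). In the list of RUNX and CBF partners, *Cbfb* and *Runx1* were the called members among 19 tested genes, beside 0.597% of all tested genes called lower and 1.1% higher, and the median log2 fold change was -0.11.

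The sequence that RUNX proteins bind was looked for in the promoters of the called genes. The motif was taken as TGTGGT or TGCGGT on either strand (ACCACA or ACCGCA as read on the other), in windows of 300 bases, from 250 before to 50 after the start. Of 27025 promoters in the RefSeq table, 22.5% held it, as did 21.1% of the promoters of uncalled genes over 10 CPM. A window was available for 54 of the genes called lower, of which 10 (18.5%) held the motif, and for 109 of those called higher, of which 22 (20.2%) did. These shares were not above that of all promoters. With 2 or more matches, the order was the reverse, with few genes: 3 of the lower (5.56%) and 6 of the higher (5.5%), beside 2.14% of the uncalled genes over 10 CPM and 2.9% of all promoters. Neither difference was tested. Shown are *Runx1*, *Lck*, *Il2ra* and *Rag1*, called genes of the CBF complex and of lymphoid development with a match, and *Mrc1* and *Jchain*, among the largest changes, without one. Windows are from RefSeq on GRCm38.p6, written 5′ to 3′ on the strand of the gene, and capitals mark the motif.
Runx1 (chr16:92826025-92826324, minus strand): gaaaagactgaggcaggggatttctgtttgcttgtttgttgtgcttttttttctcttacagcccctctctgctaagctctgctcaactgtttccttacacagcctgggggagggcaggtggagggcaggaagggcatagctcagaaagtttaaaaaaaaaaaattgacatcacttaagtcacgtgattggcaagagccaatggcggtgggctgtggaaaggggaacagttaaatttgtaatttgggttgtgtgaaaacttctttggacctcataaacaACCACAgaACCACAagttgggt
Lck (chr4:129573592-129573891, minus strand): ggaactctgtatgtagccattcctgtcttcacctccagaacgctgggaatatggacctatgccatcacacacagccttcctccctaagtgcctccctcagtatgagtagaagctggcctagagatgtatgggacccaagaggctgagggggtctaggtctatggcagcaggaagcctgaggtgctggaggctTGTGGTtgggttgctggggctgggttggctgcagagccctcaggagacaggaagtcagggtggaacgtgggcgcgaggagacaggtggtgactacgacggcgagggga
Il2ra (chr2:11642542-11642841, plus strand): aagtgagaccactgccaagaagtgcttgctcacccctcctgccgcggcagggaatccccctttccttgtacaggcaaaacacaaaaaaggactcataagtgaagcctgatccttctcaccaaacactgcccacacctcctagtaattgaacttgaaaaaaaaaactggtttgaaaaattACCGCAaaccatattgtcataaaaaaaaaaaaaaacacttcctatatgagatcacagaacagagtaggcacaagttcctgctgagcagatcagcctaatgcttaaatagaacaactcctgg
Rag1 (chr2:101649483-101649782, minus strand): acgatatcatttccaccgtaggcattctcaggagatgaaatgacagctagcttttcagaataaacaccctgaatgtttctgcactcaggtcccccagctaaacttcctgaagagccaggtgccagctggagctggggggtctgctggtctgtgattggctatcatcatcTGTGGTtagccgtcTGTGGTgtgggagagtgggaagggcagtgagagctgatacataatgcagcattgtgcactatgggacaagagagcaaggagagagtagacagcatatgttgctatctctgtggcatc
Mrc1 (chr2:14229164-14229463, plus strand): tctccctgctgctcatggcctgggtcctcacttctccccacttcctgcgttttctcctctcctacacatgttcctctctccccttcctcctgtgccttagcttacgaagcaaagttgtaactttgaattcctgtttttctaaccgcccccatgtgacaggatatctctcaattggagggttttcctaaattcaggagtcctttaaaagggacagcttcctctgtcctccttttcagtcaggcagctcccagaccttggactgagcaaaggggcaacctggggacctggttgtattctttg
Jchain (chr5:88527848-88528147, minus strand): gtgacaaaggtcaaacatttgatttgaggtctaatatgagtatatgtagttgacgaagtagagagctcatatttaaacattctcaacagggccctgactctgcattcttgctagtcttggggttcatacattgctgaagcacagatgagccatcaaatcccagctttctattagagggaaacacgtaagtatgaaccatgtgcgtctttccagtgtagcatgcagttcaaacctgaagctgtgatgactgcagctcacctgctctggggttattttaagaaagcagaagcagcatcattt
*Runx1* and *Rag1* have 2 matches each in the window, *Lck* and *Il2ra* 1 each. A match describes letters and is no evidence of binding, and a window without one says nothing about sites elsewhere.

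**Figure D2:**
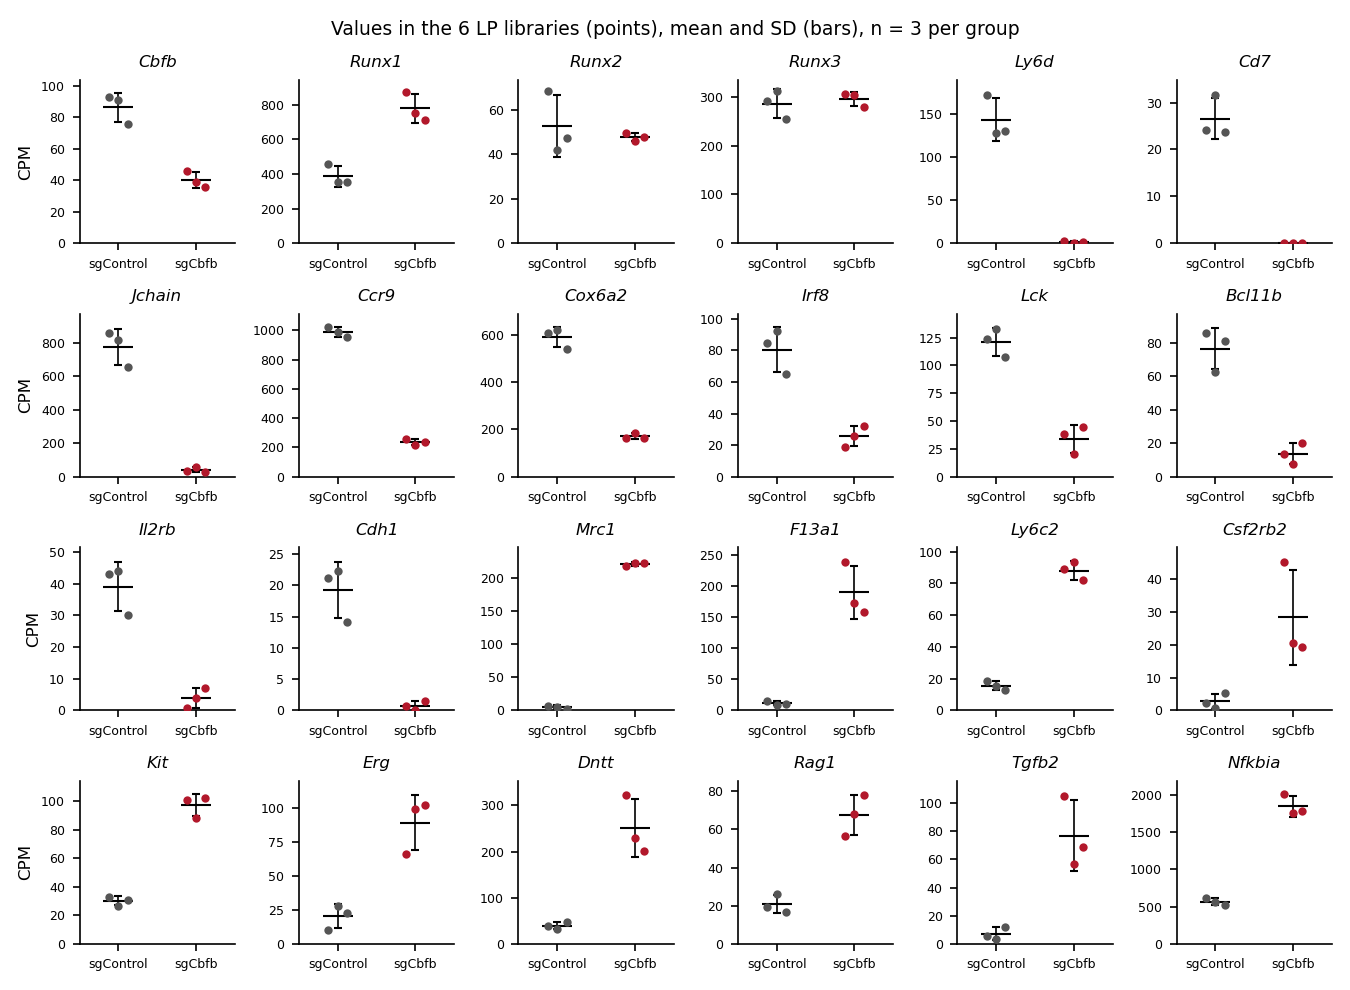
Level in CPM of 24 named genes in each of the 6 LP libraries (points), with the mean and SD of the 3 libraries of each group (bars). The groups of *Runx2* and *Runx3* overlap; the other genes plotted have no overlap between sgControl and sgCbfb.

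Genes tied to plasmacytoid dendritic cells were among the lists with the lowest medians. Of 13 tested members, 4 were called lower, *Ly6d*, *Smim5*, *Ccr9* and *Cox6a2*, against 0.597% of all tested genes, and the median log2 fold change was -1.11, or -1.40 at the bounds, where members with 1 group at the floor take their bound and those with both at the floor are left out. *Ly6d*, a surface marker of progenitors that lean to the B or plasmacytoid dendritic fate, was at 172, 128 and 131 CPM with sgControl and 2.12, 0.573 and 1.43 CPM with sgCbfb, at least 72.2-fold lower. *Ccr9*, a receptor for the chemokine CCL25 that guides progenitors to the thymus and gut, was at 1022, 989 and 955 CPM with sgControl and 255, 215 and 234 CPM with sgCbfb. The fall was 4.21-fold in the means (limma log2 fold change -2.07, adjusted P = 2.29e-09). *Cox6a2*, a subunit of cytochrome c oxidase found in muscle and in plasmacytoid dendritic cells, was at 606, 621 and 541 CPM with sgControl and 163, 185 and 165 CPM with sgCbfb (limma log2 fold change -1.78, adjusted P = 2.23e-08). *Smim5*, a small membrane protein gene, went from a mean of 42.7 to 1.71 CPM. All sgCbfb libraries of these 4 genes lay below all sgControl libraries, as held for every gene called lower. *Spib*, a transcription factor of these cells, was at the floor with sgCbfb and at least 4.05-fold lower (limma adjusted P = 0.0317), but its sgControl mean of 8.08 CPM was too low for a call. Summed over the 20 listed genes, the level was 2375, 2263 and 2149.7 CPM in the sgControl and 886, 772 and 841 CPM in the sgCbfb libraries. Its most abundant gene was *Ccr9*, and *Klk1*, *Cd209d*, *Tlr9*, *Klra17* and *Zfp521* had 0 reads in all 6 libraries. The part of a change in cell types was not tested, for these genes or for the cell type lists that follow.

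Genes of gamma-delta T cells and NKT cells split. Of 8 tested, 3 were called lower (*Cd163l1*, *5830411N06Rik* and *Trdc*) and 1 higher (*Trgc1*), where 0.597% and 1.1% of all tested genes were, with a median log2 fold change of -0.71 (-1.42 at the bounds). *5830411N06Rik*, which encodes a scavenger receptor of the SCART family, was at 240.2, 199 and 190.1 CPM with sgControl and 27.5, 18.4 and 21.4 CPM with sgCbfb, a 9.36-fold fall. Its neighbour and close relative *Cd163l1* went from 28.9, 14.2 and 21.8 CPM to 0.705, 2.87 and 0.713 CPM, and reads of near copies such as these may be assigned to the wrong one. *Trdc*, the constant segment of the T-cell receptor delta chain, was at 322, 338 and 354 CPM with sgControl and 113, 121 and 146 CPM with sgCbfb (limma log2 fold change -1.42, adjusted P = 8.17e-07). The constant segment of the gamma chain moved the other way: *Trgc1* was at 344, 354 and 306 CPM with sgControl and 1042, 988 and 774 CPM with sgCbfb, a rise of 2.79-fold that was not called without moderated variances, and its sequence is close to that of *Trgc2*. *Zbtb16*, which encodes the NKT-cell factor PLZF, had an adjusted P of 0.0352 and was at least 3.01-fold lower, at a level too low for a call. In all, the 12 listed genes summed to 1486, 1349 and 1317 CPM with sgControl and 1909, 1833 and 1601 CPM with sgCbfb, where *Trgc1* was the most abundant, and *Il17a*, *Maf* and *Blk* had 0 reads in the 6 libraries.

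Among 12 tested NK and cytotoxic genes, 2 were called lower, *Ctsw* and *Il2rb*, against 0.597% of all tested genes, with a median log2 fold change of -0.48 (-1.01 at the bounds). *Il2rb*, the beta chain of the receptors for IL-2 and IL-15, was at 43.1, 44.0 and 30.2 CPM with sgControl and 0.705, 4.02 and 7.14 CPM with sgCbfb. This 9.89-fold fall (limma log2 fold change -3.27, adjusted P = 0.00287) left no overlap, but it was not called without moderated variances or with a pseudocount of 0.1. *Ctsw*, a cathepsin of cytotoxic cells, fell 19.8-fold, and *Nkg7*, a granule protein gene, was lower with an adjusted P of 0.00848 at a mean under 10 CPM in both groups. The 21 NK and cytotoxic genes together gave 184, 177 and 152 CPM in sgControl and 108, 82.6 and 115 CPM in sgCbfb libraries. The most abundant was *Cst7*, and *Gzmb*, *Gzmc*, *Ncr1*, *Tbx21*, *Fasl*, *Xcl1* and *Klre1* had 0 reads in all 6 libraries.

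Innate lymphoid cell genes had 2 members called lower among 13 tested, *Il18r1* and *Ahr* (0.597% of all tested genes were), with a median of -0.17 (-0.05 at the bounds). *Il18r1*, the receptor chain that binds IL-18, was at 96.8, 83.6 and 79.0 CPM with sgControl and 28.9, 16.1 and 9.28 CPM with sgCbfb, 4.78-fold lower (limma log2 fold change -2.33, adjusted P = 0.000126). *Ahr*, a ligand-activated transcription factor, fell from a mean of 10.0 to 2.22 CPM, close to the level a call needs. Its call was lost in 5 of 6 fits without an LP library, those without sgCbfb replicate 2 or 3 or any sgControl replicate, and without Phase 1 sgCbfb replicate 2 or Phase 1 sgControl replicate 2, with an adjusted P of up to 0.2. Over the 19 genes the summed level was 365, 315 and 306 CPM with sgControl and 264, 227 and 195 CPM with sgCbfb. *Id2*, an inhibitor of E proteins, was the most abundant, and *Il13*, *Il5*, *Areg*, *Tox2* and *Cxcr6* had 0 reads throughout.

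T-lineage genes did not move as one. In the list of T-lineage and TCR signalling genes, 1 of 20 tested was called lower (*Lck*) and 2 higher (*Cd28* and *Lcp2*), where 0.597% and 1.1% of all tested genes were, and the median was 0.49, or 0.00 at the bounds. *Lck*, the Src-family kinase that starts signalling from the T-cell receptor, was at 123, 133 and 107 CPM with sgControl and 38.1, 20.1 and 44.2 CPM with sgCbfb (limma log2 fold change -1.86, adjusted P = 1.45e-05). *Lcp2*, which encodes the adaptor SLP-76, was at 3.54, 0.619 and 3.85 CPM with sgControl and 28.9, 37.3 and 24.98 CPM with sgCbfb, 11.4-fold higher (limma log2 fold change 3.23, adjusted P = 7.38e-06). An enzyme and an adaptor of the same signalling chain thus moved in opposite directions. *Cd28*, a costimulatory receptor, rose from a mean of 6.75 to 20.6 CPM, and without LP sgControl replicate 2 it was not called (adjusted P = 0.055). In sum, the 22 genes gave 439, 514 and 385 CPM in sgControl and 415, 392 and 378 CPM in sgCbfb libraries, which overlapped, with *Thy1* the most abundant.

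Of 17 tested T-lineage transcription factors and Notch targets, *Bcl11b* was called lower and *Il2ra* higher, with a median log2 fold change of 0.50 (0.55 at the bounds). *Bcl11b*, the factor that commits cells to the T lineage, was at 85.6, 62.5 and 80.9 CPM with sgControl and 13.4, 7.46 and 19.98 CPM with sgCbfb, a 5.61-fold fall from a level already present without Notch ligand (limma log2 fold change -2.49, adjusted P = 1.39e-06). *Il2ra*, which encodes CD25, was at 4.72, 2.48 and 0.642 CPM with sgControl and 17.6, 17.2 and 25.7 CPM with sgCbfb. The rise of this marker of the next stage went along with the fall of *Bcl11b* in the same libraries. *Myb* (527 ± 45.9 to 861 ± 59.4 CPM) and *Notch1* (263 ± 56.3 to 393 ± 15.5 CPM, SD, n = 3) passed the adjusted P alone, at 0.000159 and 0.00822, with rises under 2-fold. Over the 10 E proteins and Id inhibitors, *Id1*, an inhibitor of E proteins, was the called member: sgControl libraries were at the floor and it was at least 12.1-fold higher, with a list median of 0.35 (0.35 at the bounds).

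Among early B-lineage genes, *Dntt*, *Rag1* and *Rag2* rose. Of 16 tested, 3 were called higher (*Rag2*, *Rag1* and *Dntt*) and 1 lower (*Ly6d*), where 1.1% and 0.597% of all tested genes were, with a median of 0.48 (0.00 at the bounds). *Dntt*, whose product TdT adds bases at the joints of antigen-receptor genes, was at 38.4, 32.2 and 47.5 CPM with sgControl and 322, 229 and 202 CPM with sgCbfb, a 6.38-fold rise (limma log2 fold change 2.63, adjusted P = 1.96e-06). *Rag1*, a subunit of the recombinase, was at 19.5, 26.0 and 16.7 CPM with sgControl and 56.4, 68.3 and 77.8 CPM with sgCbfb. Its partner *Rag2* was at 14.2, 10.5 and 11.6 CPM and 36.0, 47.0 and 29.97 CPM, so both subunits rose without overlap, 3.26-fold and 3.12-fold. Summed over 24 genes, the list was at 1679, 1556 and 1489 CPM with sgControl and 1619, 1468 and 1438 CPM with sgCbfb, with overlapping groups and *Sox4* the most abundant, so the rise was in these genes and not in the list's total.

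**Figure D3:**
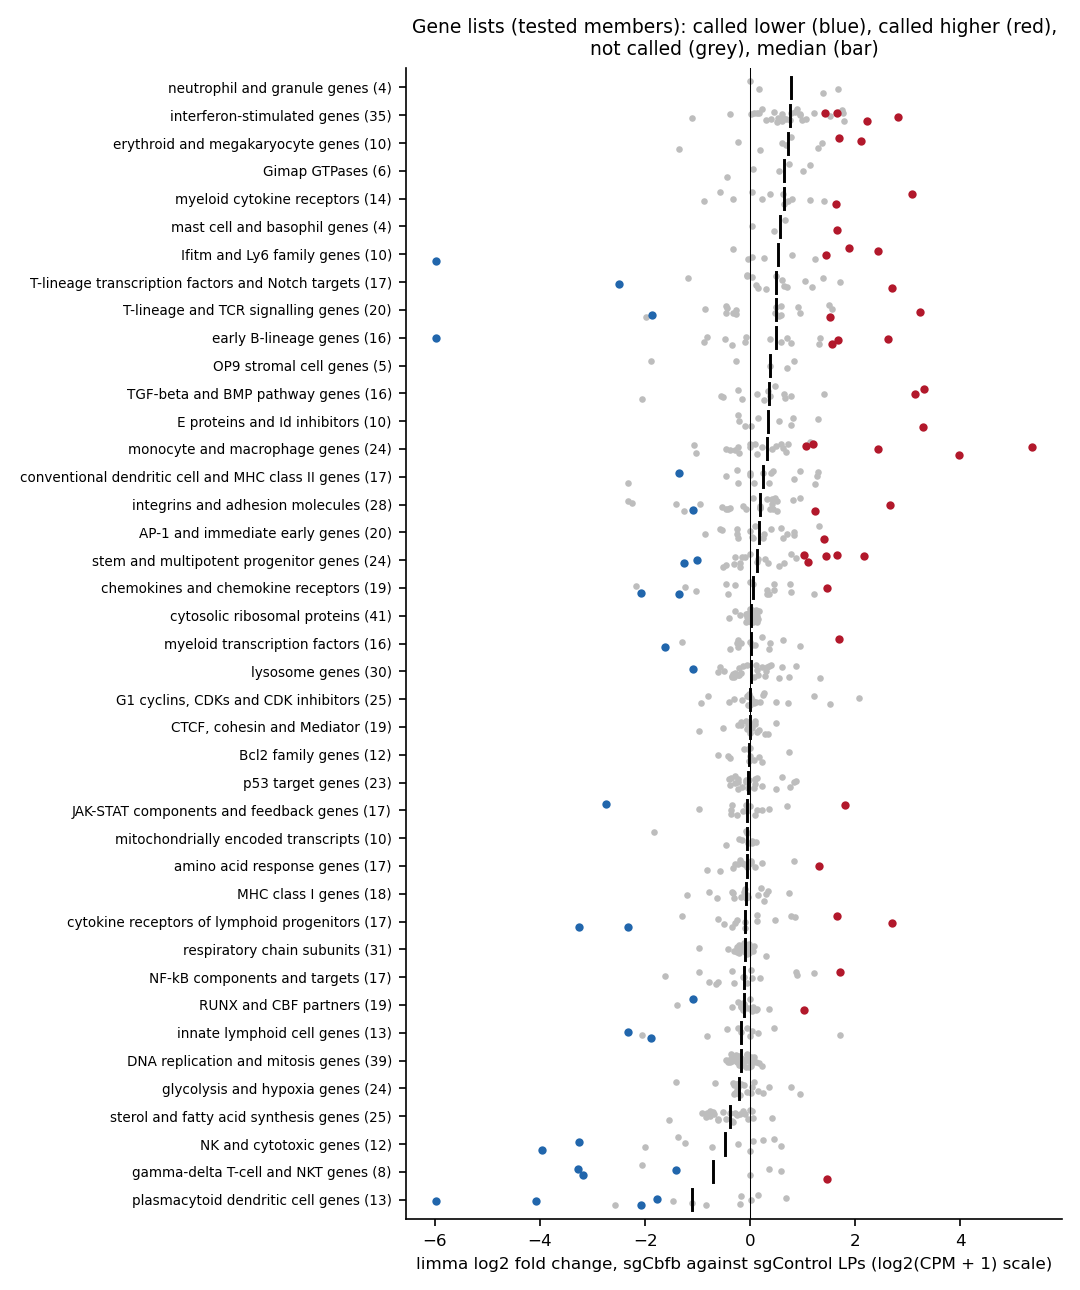
Limma log2 fold change of sgCbfb against sgControl LPs (log2(CPM + 1) scale) for the tested members of the 41 gene lists, ordered by their median (bar), with the number tested in brackets. Members called lower are blue and those called higher red; the medians run from -1.11 for plasmacytoid dendritic cell genes to 0.78 for neutrophil and granule genes.

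Genes of monocytes and macrophages rose in part. Of 24 tested, 5 were called higher, against 1.1% of all tested genes, and the median was 0.31 (0.49 at the bounds). *F13a1*, a transglutaminase subunit of monocytes, was at 14.8, 9.29 and 9.63 CPM with sgControl and 238, 172 and 158 CPM with sgCbfb. *Ly6c2*, a surface protein of classical monocytes that also marks some lymphoid progenitors, was at 18.3, 15.5 and 12.8 CPM with sgControl and 88.9, 93.5 and 82.1 CPM with sgCbfb, 5.67-fold higher (limma log2 fold change 2.44, adjusted P = 6.44e-07). *Mrc1*, the macrophage mannose receptor, was at 7.08, 5.57 and 1.93 CPM with sgControl and 218, 223 and 223 CPM with sgCbfb, and the 3 sgCbfb libraries lay close together, with an SD of 2.69 CPM. *Fcgr3*, a low-affinity receptor for IgG, rose from a mean of 36.2 to 82.9 CPM, and *Gas7*, a cytoskeletal adaptor, from 47.7 to 99.0 CPM. Single libraries decided both calls: *Fcgr3* was not called without LP sgControl replicate 3 (adjusted P = 0.059), and *Gas7* was not called without any sgCbfb replicate or without sgControl replicate 2 or 3 (up to 0.16). Summed over 34 genes the list was at 822, 779.5 and 695 CPM with sgControl and 1306, 1339 and 1203 CPM with sgCbfb. *Fcer1g* was its most abundant gene, and *Lyz1*, *Cd14*, *Ly86*, *Cd36*, *Ms4a7*, *C1qa*, *C1qb*, *C1qc*, *Trem2* and *Spic* had 0 reads in all 6 libraries.

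Of the receptors for myeloid cytokines, a pair of near copies rose. *Csf2rb* and *Csf2rb2*, the common beta chain of the receptors for GM-CSF, IL-3 and IL-5 and its IL-3-specific copy, were the 2 called of 14 tested, with a median of 0.64. *Csf2rb* was at 47.8, 21.7 and 36.0 CPM with sgControl and 98.7, 101 and 117 CPM with sgCbfb. *Csf2rb2* was at 2.36, 0.619 and 5.14 CPM with sgControl and 45.1, 20.7 and 19.3 CPM with sgCbfb, and since the copies are nearly the same in sequence, reads of one may be counted to the other. *Il4ra*, a receptor chain for IL-4 and IL-13, went from 105 ± 4.47 to 164 ± 9.43 CPM (SD, n = 3), under the fold threshold (adjusted P = 0.0191). The transcription factors of the myeloid lineage moved less: of 16 tested, *Nfe2* was called higher and *Irf8* lower, with a median of 0.02 (0.09 at the bounds). *Irf8*, which directs monocyte and dendritic cell fates, was at 84.4, 92.3 and 64.9 CPM with sgControl and 19.0, 25.8 and 32.1 CPM with sgCbfb (limma log2 fold change -1.63, adjusted P = 6.82e-05). This fall stood beside the rise of 5 of the 24 tested monocyte and macrophage genes. *Zeb2*, a repressor active in monocytes and dendritic cells, had an adjusted P of 0.0132 and means of 50.5 and 98.8 CPM, under the fold threshold.

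Neutrophil and granule genes had few reads. Of 16 listed, 4 could be tested and limma called 0, with 0 lower and 1 higher at an unadjusted P under 0.05, and edgeR called 0 lower and 0 higher, and the median was 0.78. *Mpo*, the most abundant, was at 3.54, 2.48 and 9.63 CPM with sgControl and 19.0, 18.4 and 12.8 CPM with sgCbfb, without overlap but with an adjusted P of 0.138. Their sum was 8.30, 14.9 and 27.0 CPM with sgControl and 40.2, 30.4 and 33.5 CPM with sgCbfb, and *Elane*, *Ctsg*, *Ltf*, *Camp*, *S100a8*, *Csf3r*, *Ms4a3*, *Fcnb* and *Lcn2* had 0 reads in all 6 libraries.

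A single globin gene dominated the erythroid and megakaryocyte list. *Hbb-bt*, a beta globin of adult type, was at 109.8, 157 and 128 CPM with sgControl and 566, 595 and 539 CPM with sgCbfb, 4.31-fold higher without overlap (limma log2 fold change 2.11, adjusted P = 6.26e-11). *Nfe2*, a bZIP factor of megakaryocytes and erythroid cells, was at 7.67, 7.43 and 5.14 CPM and 16.9, 36.1 and 22.1 CPM. These were the 2 called of 10 tested, against 1.1% of all tested genes called higher, and the median was 0.73 (0.58 at the bounds). Of the other genes of red cells, *Hbb-bs*, *Hbb-bh1*, *Hba-a1*, *Hba-a2*, *Alas2*, *Car1*, *Epor* and *Slc4a1* had 0 reads in all 6 libraries, as had *Gp1bb*, *Pf4*, *Vwf* and *Treml1* of megakaryocytes. The sum over 26 genes was 148, 189 and 190.1 CPM with sgControl and 629, 684 and 606 CPM with sgCbfb, most of it *Hbb-bt*. Since *Hbb-bs* is almost identical in sequence, which of these copies the reads came from is uncertain.

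Genes of stem and multipotent progenitors changed in both directions, 5 higher (*Erg*, *Kit*, *Ly6a*, *Cd93* and *Cd34*) and 2 lower (*Mn1* and *Bcl11a*) of 24 tested, beside 1.1% and 0.597% of all tested genes, with a median of 0.14 (0.00 at the bounds). *Erg*, an ETS factor of stem cells, was at 10.6, 27.9 and 22.5 CPM with sgControl and 66.3, 99.2 and 103 CPM with sgCbfb (limma log2 fold change 2.16, adjusted P = 0.000134). *Cd93*, a receptor of early progenitors, was at 223, 228 and 240.2 CPM with sgControl and 542, 487 and 455 CPM with sgCbfb, and *Cd34*, a surface sialomucin of progenitors, was at 256, 229.7 and 293 and 547, 524 and 507 CPM. The rises of these abundant genes were close to 2-fold: without LP sgCbfb replicate 1 or sgControl replicate 2, *Cd34* was under the fold threshold, with a log2 fold change of 0.94 at the least and an adjusted P of at most 0.00019. *Ly6a*, which encodes Sca-1, was at 30.1, 37.2 and 28.9 CPM with sgControl and 83.2, 97.5 and 85.6 CPM with sgCbfb. *Kit*, the SCF receptor, rose 3.22-fold and was the called member among 4 tested mast cell and basophil genes as well (median 0.56, 0.83 at the bounds). That list summed to 33.6, 28.5 and 31.5 CPM with sgControl and 106, 89.5 and 106 CPM with sgCbfb, nearly all of it *Kit*, and *Ms4a2*, *Fcer1a*, *Mcpt8*, *Mcpt4*, *Cma1* and *Tpsab1*, which define these cells, had 0 reads.

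*Mn1*, a transcriptional co-regulator, was at 183, 144 and 154 CPM with sgControl and 64.9, 82.6 and 53.5 CPM with sgCbfb. *Bcl11a*, a zinc-finger factor needed for early lymphoid development, was at 157, 132 and 120.1 CPM with sgControl and 60.7, 58.5 and 84.9 CPM with sgCbfb, and an antisense gene overlaps its exons, which cannot be told apart here. Both calls depended on single libraries, while the direction of both falls did not. The call of *Mn1* was lost without LP sgCbfb replicate 3 or sgControl replicate 1 (adjusted P up to 0.063), or without moderated variances. *Bcl11a* fell by 0.90 at the least on the log2 scale and was under the fold threshold without LP sgCbfb replicate 1, sgCbfb replicate 2 or sgControl replicate 1, and also with median-of-ratios scaling. The 30 progenitor genes summed to 5676, 5185 and 5265 CPM with sgControl and 6247, 5762 and 5553 CPM with sgCbfb, which overlapped, with *Mef2c* the most abundant and *Hlf*, *Mecom* and *Procr* at 0 reads.

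Conventional dendritic cell and MHC class II genes stayed near the rest: *Ccr7* was called lower among 17 tested and the median was 0.24 (0.12 at the bounds). *Ccr7*, the receptor for CCL19 and CCL21, was at 23.02, 39.6 and 39.2 CPM with sgControl and 10.6, 13.2 and 13.6 CPM with sgCbfb. Its call was lost without any of the sgCbfb replicates or without sgControl replicate 2 or 3 (adjusted P up to 0.18), and without moderated variances. *Itgax*, which encodes CD11c, had 9.44, 4.33 and 1.28 CPM with sgControl and 0 reads with sgCbfb, at a mean too low for a call (adjusted P = 0.0132). The list summed to 345, 369.6 and 302 CPM with sgControl and 396, 408 and 370.4 CPM with sgCbfb, *Cst3* was its most abundant gene, and *Zbtb46*, *Ciita*, *Xcr1* and *Clec9a* had 0 reads.

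Genes of the stroma on which the cells grew mostly had few or 0 reads. Of 25 OP9 stromal cell genes, 13 had 0 reads in all 6 libraries, among them *Col1a1*, *Col3a1*, *Dcn*, *Lum*, *Postn*, *Pdgfra* and *Acta2*, and 5 could be tested. Limma called 0, with 1 lower and 1 higher at an unadjusted P under 0.05, and edgeR called 0 lower and 0 higher, and the median was 0.38 (0.35 at the bounds). The list summed to 904, 1024 and 887 CPM with sgControl and 1435, 1670.4 and 1452 CPM with sgCbfb, nearly all of it *Igfbp4*, a binding protein of insulin-like growth factors. *Igfbp4* was at 892, 1006 and 876 CPM with sgControl and 1425, 1657 and 1446 CPM with sgCbfb, without overlap, and its difference of 1.63-fold was under the fold threshold (limma log2 fold change 0.71, adjusted P = 0.00014). *Igfbp4* was among the more abundant genes.

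**Figure D4:**
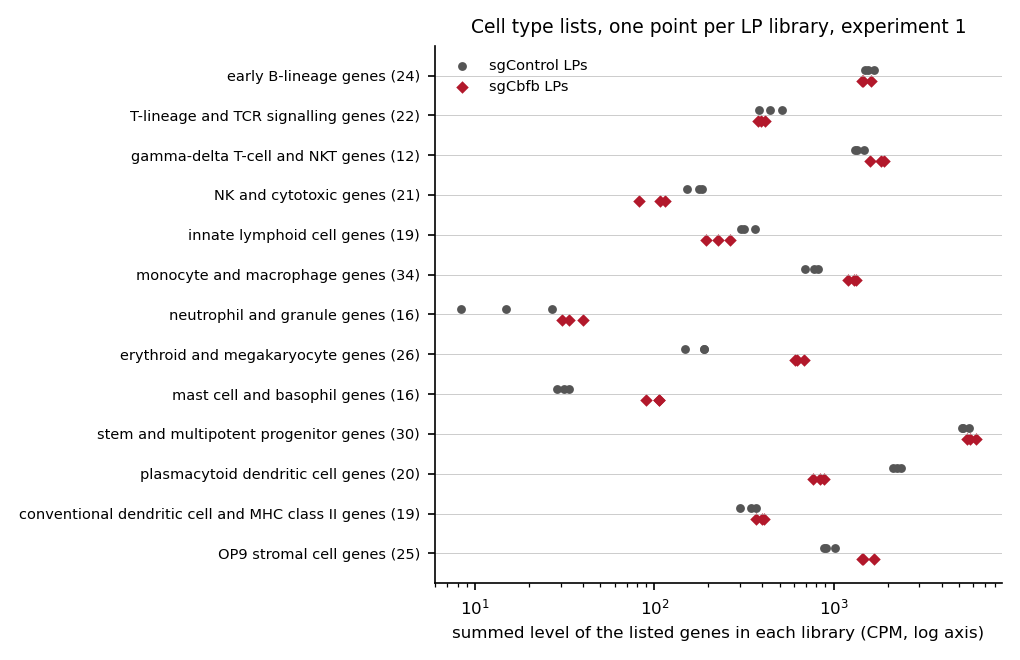
Summed level in CPM (log axis) of the genes of each cell type list in each of the 6 LP libraries of experiment 1, with sgControl in grey circles and sgCbfb in red diamonds and the number of listed genes in brackets. The sums of plasmacytoid dendritic cell, NK and innate lymphoid genes are lower in every sgCbfb library, and those of monocyte, neutrophil, erythroid, mast cell, conventional dendritic cell, OP9 stromal and gamma-delta T-cell genes higher. The gamma-delta T-cell sum holds *Trgc1*, its most abundant gene, which was called higher, while *Cd163l1*, *5830411N06Rik* and *Trdc* in it were called lower.

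Receptors and signalling pathways were read by role. Among 17 tested cytokine receptors of lymphoid progenitors, *Kit* and *Il2ra* were called higher and *Il2rb* and *Il18r1* lower, with a median of -0.10 (-0.18 at the bounds). In the JAK-STAT list, 17 genes were tested, *Cish* was called higher and *Pim2* lower, with a median of -0.06. *Cish*, a feedback inhibitor that STAT5 induces, was at 57.8, 28.5 and 61.7 CPM with sgControl and 198, 152 and 151 CPM with sgCbfb (limma log2 fold change 1.81, adjusted P = 3.34e-05). *Pim2*, a survival kinase also induced through STAT signalling, was at 98.6, 82.4 and 60.4 CPM with sgControl and 14.1, 5.16 and 17.1 CPM with sgCbfb (limma log2 fold change -2.75, adjusted P = 0.000915). Both lie downstream of cytokine receptors, and they moved in opposite directions.

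In the TGF-beta and BMP list 2 of 16 tested genes were called higher, with a median of 0.35 (0.29 at the bounds). *Tgfb2*, a ligand, was at 5.90, 3.72 and 12.2 CPM with sgControl and 105, 56.8 and 68.5 CPM with sgCbfb, 10.6-fold higher (limma log2 fold change 3.32, adjusted P = 9.75e-05). *Lrrc32*, which encodes GARP, the docking receptor for latent TGF-beta, was at the floor with sgControl and at 20.5, 8.604 and 7.85 CPM with sgCbfb, at least 6.64-fold higher. Its highest value was in sgCbfb replicate 1, without which its mean was under the level for a call (adjusted P up to 0.031). *Nrros*, a GARP-like anchor of latent TGF-beta and the most abundant gene of the list, went the other way from 270.4 ± 11.4 to 189 ± 8.91 CPM (SD, n = 3), under the fold threshold (adjusted P = 0.0383).

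*Nfkbia*, which encodes the NF-kB inhibitor IκBα, was the called member of 17 tested NF-kB components and targets, whose median was -0.11. Its level was 616, 558 and 524 CPM with sgControl and 2006, 1748 and 1781 CPM with sgCbfb, a rise of 3.26-fold in an abundant gene (limma log2 fold change 1.70, adjusted P = 0.000411) that was not called without moderated variances. *Rel*, a subunit of NF-kB, was lower with an adjusted P of 0.0273, at means of 46.7 and 23.7 CPM and under the fold threshold. Of 20 AP-1 and immediate early genes, *Dusp2*, a phosphatase that shuts off MAP kinases, was the called member, at 129.8, 153 and 102 CPM with sgControl and 319, 353 and 339.7 CPM with sgCbfb, and the median was 0.17. The call of *Dusp2* did not survive leaving out any of the sgCbfb replicates or sgControl replicate 1 or 3 (adjusted P up to 0.12), nor the fit without moderated variances. *Klf6*, an early response factor, passed the adjusted P alone (0.00189), at means of 80.6 and 145 CPM.

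Among 28 tested integrins and adhesion molecules, *Itgb5* and *Cd44* were called higher and *Cd63* lower, with a median of 0.18 (0.00 at the bounds). *Cd44*, the hyaluronan receptor, was at 99.7, 113 and 96.3 CPM with sgControl and 224, 262 and 243 CPM with sgCbfb. *Cd63*, a tetraspanin of late endosomes that is also in the lysosome list as its called member (30 tested, median 0.01), was at 213, 189 and 194 CPM with sgControl and 98.7, 87.2 and 94.2 CPM with sgCbfb. *Itgb5*, an integrin beta chain, rose from a mean of 1.04 to 10.9 CPM and lost its call without LP sgCbfb replicate 1 or sgControl replicate 1 (adjusted P up to 0.059), or with a pseudocount of 0.1. The call of *Cd44* was lost without moderated variances. *Itga6*, the alpha chain of the laminin receptors, was just under the fold threshold at 189.6 ± 12.8 and 371 ± 52.7 CPM (SD, n = 3, adjusted P = 5e-05). Of 19 chemokines and chemokine receptors, *Ccr9* and *Ccr7* were called lower, with a median of 0.05 (0.13 at the bounds).

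Interferon-stimulated genes leaned upwards as a list. Of 35 tested, 4 were called higher, *Rsad2*, *Trim30a*, *Rtp4* and *Igtp*, against 1.1% of all tested genes, 33 had a log2 fold change above 0, and the median was 0.76 (0.68 at the bounds). *Rsad2*, which encodes the antiviral protein viperin, was at 1.18, 2.48 and 1.28 CPM with sgControl and 16.9, 10.9 and 27.1 CPM with sgCbfb. *Trim30a*, a TRIM protein, was at 5.90, 3.72 and 1.93 CPM with sgControl and 21.2, 18.9 and 21.4 CPM with sgCbfb, with the closest sgCbfb libraries of the 4. All of these genes were low. *Rtp4*, a chaperone of receptors, was at 12.98, 12.4 and 3.21 CPM and 27.5, 20.1 and 40.0 CPM, and *Igtp*, an interferon-gamma-induced GTPase, was at 7.08, 5.57 and 3.85 CPM and 18.3, 11.5 and 19.3 CPM. Neither call was firm. *Rtp4* was lost without any of the sgCbfb replicates, sgControl replicate 3 or any Phase 1 sgCbfb replicate (adjusted P up to 0.26), and *Igtp* without sgCbfb replicate 1 or 3 or sgControl replicate 2 or 3 (up to 0.16). *Gbp7*, the most abundant of the list, went from 75.7 ± 4.50 to 148 ± 11.5 CPM (SD, n = 3, adjusted P = 0.000329), under the fold threshold. Summed over 40 genes, the list was at 473, 511 and 547 CPM with sgControl and 721, 587 and 824 CPM with sgCbfb. Replicate 3 was the highest and replicate 2 the lowest of the sgCbfb libraries.

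Among 10 Ifitm and Ly6 family genes, 3 were called higher (*Ly6c2*, *Ifitm3* and *Ly6a*) and *Ly6d* lower, beside 1.1% and 0.597% of all tested genes, with a median of 0.53 (0.10 at the bounds). *Ifitm3*, which blocks the entry of viruses, was at 2.95, 3.10 and 1.93 CPM with sgControl and 18.3, 10.9 and 9.28 CPM with sgCbfb, and was not called without sgCbfb replicate 1 (adjusted P = 0.065). Its neighbour in the family *Ifitm2* was under the fold threshold, at 47.2 ± 8.58 and 82.1 ± 8.52 CPM (SD, n = 3, adjusted P = 0.0138). MHC class I genes did not share the direction of the interferon list: of 18 tested limma called 0, with 4 lower and 0 higher at an unadjusted P under 0.05, and edgeR called 1 lower and 0 higher, and the median was -0.08 (-0.04 at the bounds). *B2m*, the light chain of class I, was at 1058, 1191 and 1189.5 CPM with sgControl and 1392, 1356 and 1354 CPM with sgCbfb, without overlap but with an adjusted P of 0.694. *Calr*, a chaperone that loads class I, was lower at 726 ± 51.0 and 474 ± 72.9 CPM (SD, n = 3, adjusted P = 0.00274), under the fold threshold.

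The lists of DNA replication, G1, p53 target and Bcl2 family genes had 0 limma calls. Over 39 DNA replication and mitosis genes limma called 0, with 2 lower and 0 higher at an unadjusted P under 0.05, and edgeR called 0 lower and 0 higher. The median was -0.18, 31 members were below 0, and the sum went from 9152, 9419 and 9424 CPM in the sgControl to 8975, 8994 and 8664 CPM in the sgCbfb libraries, a small shift that left no overlap. *Top2a*, the most abundant of these, was at 2488, 2516 and 2656 CPM and 2909, 2598 and 2511 CPM, and its groups overlapped. For 25 G1 cyclins, CDKs and their inhibitors limma also called 0, with 1 lower and 4 higher at an unadjusted P under 0.05, and edgeR called 0 lower and 1 higher, at a median of 0.00 (0.01 at the bounds). Within that list *Ccnd2*, a D-type cyclin, was close to a call at 482, 542 and 588 CPM with sgControl and 236, 291 and 318 CPM with sgCbfb (limma log2 fold change -0.94, adjusted P = 3.77e-05). Of the 25 genes 12 were below and 12 above 0. Higher by adjusted P without a call were 2 inhibitors: *Cdkn1a*, which encodes p21, was at 401 ± 29.2 and 564 ± 9.60 CPM (adjusted P = 0.0167), and *Cdkn2b*, which encodes p15, was at the floor with sgControl and at least 2.54-fold higher (adjusted P = 0.0484), too low for a call. *Cdk6*, at a mean of 858 CPM, had overlapping groups.

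Over 23 tested p53 targets limma called 0, with 0 lower and 4 higher at an unadjusted P under 0.05, and edgeR called 0 lower and 0 higher, and the median was -0.04 (-0.03 at the bounds), with *Gpx1*, a glutathione peroxidase, the most abundant at 1472 and 1712 CPM. The p53 list summed to 2383.9, 2591.9 and 2304.5 CPM with sgControl and 2789.6, 2947.8 and 2796.7 CPM with sgCbfb, without overlap. Of its tested members 13 were below and 10 above 0. For 12 Bcl2 family genes limma called 0, with 0 lower and 0 higher at an unadjusted P under 0.05, and edgeR called 0 lower and 0 higher, at a median of -0.02 (-0.02 at the bounds). *Bcl2*, the survival gene itself, was at 669.9, 588 and 556 CPM with sgControl and 639.7, 636 and 525 CPM with sgCbfb, and its groups overlapped. The 6 tested Gimap GTPases, which are lymphocyte survival genes, had 0 limma calls, with 0 lower and 1 higher at an unadjusted P under 0.05, and edgeR called 0 lower and 0 higher, at a median of 0.65 over low levels. *Gimap9*, the most abundant, overlapped between groups at means of 51.9 and 38.3 CPM.

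Sterol and fatty acid synthesis genes leaned downwards. Limma called 0 of 25, with 12 lower and 1 higher at an unadjusted P under 0.05, and edgeR called 0 lower and 0 higher. The median was -0.38 and 22 of the members were below 0. *Hmgcs1*, which makes the precursor of mevalonate, was at 507, 403 and 424 CPM with sgControl and 296, 307 and 270.5 CPM with sgCbfb (adjusted P = 0.00332). Later steps of the cholesterol pathway went with it: *Cyp51* was at 193 ± 14.9 and 119 ± 12.2 CPM, and *Dhcr7* at 52.9 ± 5.42 and 29.0 ± 2.74 CPM (SD, n = 3), with adjusted P of 0.00682 and 0.0378. Summed over the list, the level was 3442, 3377 and 3211 CPM with sgControl and 2681, 2639 and 2678 CPM with sgCbfb, without overlap. *Scd2*, a desaturase and the most abundant of the list, had an adjusted P of 0.379.

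Other parts of metabolism gave few calls. Among 24 glycolysis and hypoxia genes limma called 0, with 1 lower and 2 higher at an unadjusted P under 0.05, and edgeR called 1 lower and 0 higher, and the median was -0.21. *Vegfa*, a target of the hypoxia response, was just under the fold threshold at 146, 118 and 123 CPM with sgControl and 295, 215 and 246 CPM with sgCbfb (adjusted P = 0.00135), and *Pkm*, a glycolytic enzyme and the most abundant member, overlapped. Of 17 amino acid response genes, *Ndrg1* was called higher, from a mean of 15.5 to 40.1 CPM, and the median was -0.07. Without LP sgCbfb replicate 1 the rise of *Ndrg1*, which responds to stress and hypoxia, was not called (adjusted P = 0.061). The 31 respiratory chain subunits had 0 limma calls, with 2 lower and 0 higher at an unadjusted P under 0.05, and edgeR called 0 lower and 0 higher, and a median of -0.11. Their most abundant member *Atp5a1* was at 755 ± 25.9 and 633 ± 37.9 CPM (SD, n = 3, adjusted P = 0.266). Of 15 mitochondrially encoded transcripts 5 were at 0 reads in all 6 libraries, as named above, and the 10 tested had 0 limma calls, with 2 lower and 0 higher at an unadjusted P under 0.05, and edgeR called 0 lower and 0 higher, a median of -0.07 (-0.07 at the bounds), and *mt-Rnr2* far above the rest.

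The machinery of translation and of chromatin loops gave no calls. For 41 cytosolic ribosomal proteins limma called 0, with 0 lower and 0 higher at an unadjusted P under 0.05, and edgeR called 0 lower and 0 higher, and the log2 fold changes ran from -0.40 to 0.17 with a median of 0.02. *Rps14*, the most abundant, was at 4934, 4885 and 4452 CPM and 5021, 5152 and 4891 CPM. For 19 genes of CTCF, cohesin and Mediator limma called 0, with 0 lower and 1 higher at an unadjusted P under 0.05, and edgeR called 0 lower and 0 higher, at a median of -0.01, and *Smc1a*, a cohesin subunit, had overlapping groups at 879 and 833 CPM. Of the 41 lists, 27 had a called gene and 14 had none by limma.

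Most called genes, 167 of 224, were in none of the lists. *Jchain*, which encodes the joining chain of IgM and IgA and is also read in early lymphoid progenitors, was at 862, 815 and 656 CPM with sgControl and 36.0, 58.5 and 29.3 CPM with sgCbfb, a fall of 18.9-fold (limma log2 fold change -4.25, adjusted P = 6.26e-11). *Cd7*, a surface protein of T, NK and early lymphoid cells, was at 24.2, 31.6 and 23.8 CPM with sgControl and had 0 reads with sgCbfb, which is at least 13.3-fold lower. Every sgControl library of both genes was above every sgCbfb library, which follows from their choice among called genes without overlap. *Cdh1*, which encodes E-cadherin, was at 21.2, 22.3 and 14.1 CPM with sgControl and at the floor with sgCbfb, at least 9.65-fold lower. *Slc16a5*, a monocarboxylate transporter, had 17.7, 5.57 and 16.7 CPM with sgControl and 0 reads with sgCbfb, at least 6.69-fold lower, with sgControl replicate 2 well below the other 2. *Chdh*, a mitochondrial choline dehydrogenase, went from a mean of 52.0 to 2.81 CPM, and *Nrgn*, a calmodulin-binding protein gene, from 734 ± 35.0 to 313 ± 8.38 CPM (SD, n = 3, adjusted P = 4.44e-08).

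Rises outside the lists included genes with almost no reads in control cells. *Syt1*, a calcium sensor of vesicle release, was at 5.90, 0.619 and 0 CPM with sgControl and 56.4, 35.0 and 52.1 CPM with sgCbfb (limma log2 fold change 4.42, adjusted P = 0.000117). The non-coding gene *8430426J06Rik* had 0 reads with sgControl and 19.7, 20.1 and 13.6 CPM with sgCbfb, at least 9.61-fold higher. *P2rx7*, an ATP-gated channel, and *Col4a2*, a basement membrane collagen chain, were at the floor with sgControl and at least 7.41-fold and 7.43-fold higher. None of these genes overlapped between groups, which follows from their choice among called genes without overlap. *Ccn3*, a secreted matricellular protein, was at 4.13, 1.86 and 11.6 CPM with sgControl and 58.5, 61.4 and 79.2 CPM with sgCbfb. *Ctla2a*, a cathepsin inhibitor, went from a mean of 1.48 to 25.3 CPM and *Otof*, a ferlin of vesicle fusion, from 2.97 to 32.6 CPM, with its highest sgControl value in replicate 3.

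Further genes, chosen after their values were seen, show the range of functions outside the lists. Among abundant genes that fell, *C1ql2*, a C1q-like secreted protein, was at 240.2, 208 and 210.0 CPM with sgControl and 45.8, 32.1 and 31.4 CPM with sgCbfb, and *Actr3b*, a subunit of the actin-branching Arp2/3 complex, at 210.1, 142 and 159 and 31.0, 20.7 and 22.8 CPM. Transcriptional regulators fell too: *Aff3*, a scaffold of the super elongation complex that is high in lymphoid cells, was at 276 ± 10.9 and 102 ± 17.8 CPM, and *Tsc22d1* at 529 ± 65.2 and 203 ± 28.4 CPM (SD, n = 3). *Cd24a*, a surface antigen of immature lymphocytes, went from a mean of 53.7 to 21.5 CPM. Among rises, *Egfl7*, the host gene of a microRNA of stem and progenitor cells, was at 54.3, 54.5 and 85.4 CPM with sgControl and 324, 334 and 382 CPM with sgCbfb. *Irak1bp1*, a modulator of NF-kB signalling, was at 28.3, 24.1 and 22.5 CPM with sgControl and 159, 134 and 158 CPM with sgCbfb. *Prkce*, a protein kinase C, was at 28.7 ± 4.22 and 132 ± 12.1 CPM, *Elk3*, an ETS factor, at 36.5 ± 5.71 and 119 ± 4.91 CPM, and *Bank1*, an adaptor of B-cell receptor signalling, at 4.93 ± 2.14 and 45.9 ± 6.30 CPM (SD, n = 3). The call of *Bank1* was lost without moderated variances. *Reep5*, which shapes the endoplasmic reticulum, and *Gm32122*, an uncharacterised gene, rose from means of 265 and 163 to 640.2 and 479 CPM.

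Some of the largest moves in CPM were under 2-fold and so not called. *Hspa5*, the main chaperone of the endoplasmic reticulum, was at 1173, 1291 and 1216 CPM with sgControl and 677, 774 and 802 CPM with sgCbfb (limma log2 fold change -0.71, adjusted P = 0.000187). A related chaperone looked up after this was seen, *Hsp90b1*, was at 825 ± 81.4 and 523 ± 49.7 CPM (SD, n = 3, adjusted P = 0.000697), also under the fold threshold, and other chaperones were not counted. *Myl10*, a myosin light chain, was at 1361, 1323 and 1366 CPM with sgControl and 1007, 812 and 806 CPM with sgCbfb (adjusted P = 0.00558). The largest gain in CPM was in *Macroh2a1*, a histone variant of repressed chromatin, at 2839.5, 2687 and 2658 CPM with sgControl and 3977, 4094 and 3986 CPM with sgCbfb (limma log2 fold change 0.56, adjusted P = 0.000278). None of the libraries of these genes overlapped between groups.

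Called genes that lie near each other were counted. Within 100 kb, 12 of the 79 lower genes (15.2%) had another lower gene, and 22 of the 145 higher genes (15.2%) had another higher gene. Of 8376 uncalled genes over 10 CPM, 2.28% had a lower and 2.42% a higher gene within that distance. The 21 neighbouring pairs took in 34 genes, and each pair moved in the same direction. No test of this was made, and some pairs are near copies or overlap, so that reads of one gene may be counted to the other. The neighbours named next were in part chosen after their values were seen. On chromosome 9, *Lztfl1*, a protein of ciliary traffic, lies within the span of *Ccr9*, at 377, 300.3 and 238 CPM with sgControl and 88.2, 95.8 and 94.2 CPM with sgCbfb. On chromosome 5, *Enam*, *Jchain* and *Rufy3* all fell: *Rufy3* was at 49.9 ± 3.58 and 15.8 ± 2.86 CPM (SD, n = 3), and *Enam*, an enamel protein gene with 12.98, 14.9 and 4.50 CPM with sgControl, had 0 reads with sgCbfb. *Enam* was too low for a call without sgControl replicate 1 or 2 (adjusted P up to 0.022). On chromosome 11 *Smim6* fell beside *Smim5*, from a mean of 13.1 CPM to the floor, and was not called without sgCbfb replicate 3 or sgControl replicate 2 (up to 0.058). *Paox*, a polyamine oxidase, fell near *Cd163l1* from 60.2 to 27.9 CPM and was not called without sgCbfb replicate 1 or sgControl replicate 2 (up to 0.078), and of the near copies *Tubb2a* (24.1 to 5.55 CPM) and *Tubb2b* (109.5 to 52.3 CPM), which encode beta tubulins and fell, the latter was under the fold threshold without sgCbfb replicate 3 or sgControl replicate 2 (log2 fold change -0.94).

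Rising neighbours included *Rag1* and *Rag2*, which share a locus, and the receptor pair *Csf2rb* and *Csf2rb2*. On chromosome 2, *Stam*, an endosomal adaptor of cytokine receptors, rose near *Mrc1*, at 38.4, 31.0 and 36.6 CPM with sgControl and 98.7, 99.8 and 96.3 CPM with sgCbfb, and *Hacd1*, next to *Stam*, went from a mean of 22.7 to 55.8 CPM. *Hacd1* was not called without sgCbfb replicate 1 or sgControl replicate 2 (adjusted P up to 0.067). On chromosome 16, *Heg1* (6.20 to 21.8 CPM), a receptor of vessel walls, *Itgb5* and the non-coding *Gm15657* rose together, with *Gm15657* at 0.590, 1.86 and 5.78 CPM with sgControl and 37.4, 25.2 and 33.5 CPM with sgCbfb and exons that overlap those of *Heg1* on the opposite strand. Families in tandem moved as pairs: *Ifi203* was at 43.3 ± 10.3 and 129 ± 8.26 CPM, *Mndal* at 66.5 ± 3.52 and 145 ± 9.73 CPM, and *Armcx4* at 38.6 ± 5.73 and 217 ± 15.6 CPM (SD, n = 3). *Armcx6*, near *Armcx4* on chromosome X, was not called without sgCbfb replicate 1 or 2 or sgControl replicate 2 or 3 (adjusted P up to 0.08), nor without moderated variances. *Slfn2*, a regulator of lymphocyte quiescence, rose from 7.81 to 28.0 CPM beside the pseudogene *Slfn10-ps*, a call that was lost without moderated variances, as were those of *Hacd1*, *Paox*, *Smim6* and *Tubb2b*. The share of these pairs that comes from reads assigned to the wrong copy was not measured.

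The second experiment gave the same comparison in separate libraries with their own sgControl, 3 against 3, at 3354486 to 4106599 reads. Its table was scaled on its own, so the experiments were not tested against each other. There, limma called 218 genes lower (1.65%) and 352 higher (2.67%), 570 of 13177 tested (4.33%). Of the 224 genes called in the first experiment, 192 (85.7%) were called in the same direction in the second (122 without moderated variances), 68 of the lower (86.1%) and 124 of the higher (85.5%). They made up 31.2% of its lower and 35.2% of its higher calls. Limma called 0 in the opposite direction, with 0 at an unadjusted P under 0.05 and 0 by edgeR. The 11 lower and 21 higher genes without a call all had the same sign, and 8 and 15 of them had an adjusted P under 0.05. The median log2 fold change of the lower genes was -1.77 in the first and -1.94 in the second experiment, and of the higher genes 1.69 in both. Since the genes were chosen in the first experiment, its own values may be raised by that choice.

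Sizes differed between experiments for single genes. *Ccr9* went in the second from 534 ± 94.0 to 26.9 ± 2.32 CPM (SD, n = 3), a log2 fold change of -4.25 beside -2.07 in the first. *Jchain* went from 616 ± 47.5 to 7.89 ± 2.97 CPM there and *Lck* from 102 ± 14.7 to 6.55 ± 1.04 CPM, both larger falls than in the first experiment. The T-lineage factor *Bcl11b* fell from 55.1 ± 12.96 to 2.95 ± 1.60 CPM. *Irf8* was the reverse case: it was not called in the second, with 80.8 ± 17.4 to 65.9 ± 24.9 CPM and an adjusted P of 0.328. The list of interferon-stimulated genes differed, with 29 called higher and a median log2 fold change of 2.69 in the second experiment against 4 and 0.76 in the first. *Rtp4*, whose call hung on single libraries in the first experiment, went there from 3.63 ± 1.67 to 124 ± 52.0 CPM. Plasmacytoid dendritic cell genes had 4 called lower and 1 (*Irf7*) higher in the second, with a median of -1.28, and sterol synthesis genes had a median of -0.25 and 1 called lower. Other lists had lower medians there: the median of the T-lineage and TCR signalling genes was -0.56 there beside 0.49 in the first (0.00 at the bounds), with 3 called lower and 1 higher, and that of the early B-lineage genes was -0.01 beside 0.48 (0.00 at the bounds). The summed level of the gamma-delta T-cell and NKT genes fell in the second, from 1310.0 ± 74.5 to 1110.0 ± 89.6 CPM (SD, n = 3), where it rose in the first from 1384 ± 89.7 to 1781 ± 160.0 CPM.

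**Figure D5:**
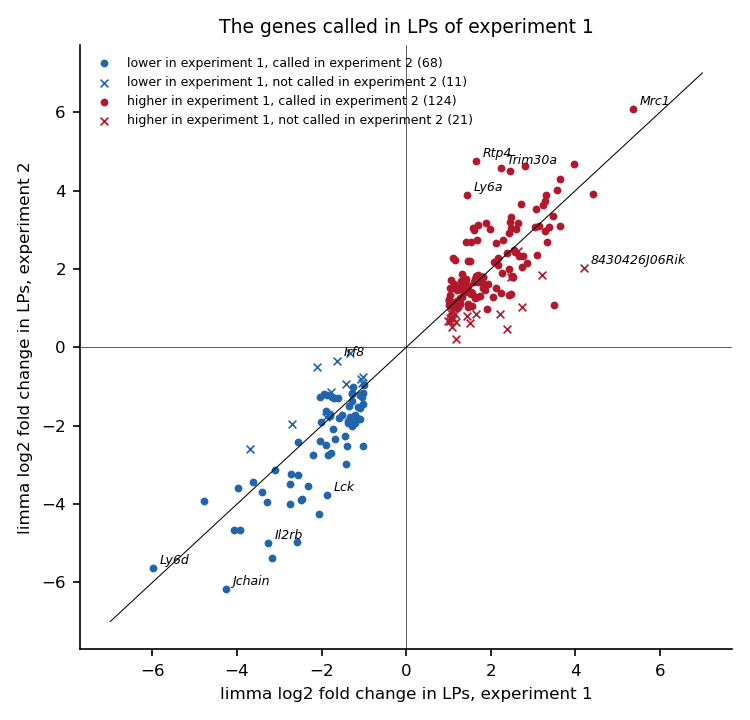
Limma log2 fold change of sgCbfb against sgControl LPs in experiment 2 against that in experiment 1, for the 224 genes called in experiment 1, with the line of equal values. Genes also called in experiment 2 are circles (68 lower, 124 higher) and the others crosses (11 and 21); all lie on the same side of 0 in both experiments.

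Whether the effect was particular to unstimulated cells was tested by the interaction of sgCbfb with stage, against Phase 1 cells of the same experiment, in the same fit. Of the 224 genes, 39 (17.4%) had an interaction with an adjusted P under 0.05, where 1.27% of all tested genes did. In 16 of the 18 lower and 19 of the 21 higher genes among them it opposed the change in LPs, and in 2 of each it added to it. Choosing genes by a large change in LPs favours both an interaction and this sign, since the same LP libraries enter both. Of the called genes, 36 of the 79 lower and 69 of the 145 higher were called in the same direction in Phase 1 cells, and 2 lower and 3 higher in the opposite one, where 1.56% of all tested genes were called lower and 1.96% higher in Phase 1 cells. Genes without an interaction were not shown to differ between stages. The 39 became 12 without moderated variances. Without LP sgCbfb replicate 3 the count was 24, and without LP sgControl replicate 2 it was 25.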

How the data were processed

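Values were the per-library tables of both QuantSeq experiments. According to the labels, the authors trimmed reads with fastp, mapped 75-base single reads to mm10 with STAR, and divided the reads of each gene by the library total to make the deposited CPM values, which the tables name TPM. Within 0.05 reads, at least 99.92% of the nonzero values of each LP library of experiment 1 were whole reads over the library total, with no division by length. The deposited column of pooled sgControl means was not used. Of 55487 genes in the tables, 55227 were matched to GENCODE M21. A gene was tested where 3 or more libraries of its experiment reached 1 CPM. The fit was made by limma 3.58.1 (R 4.3.3) on log2(CPM + 1), all 12 libraries and 4 groups in 1 fit, variances moderated along a trend, and Benjamini-Hochberg adjustment over all tested genes. Every P in the report is limma's. An exact permutation test of 3 against 3 could not go below 0.1 (two-sided), so none was made.

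The members and the 41 lists were chosen with earlier results of these data known. Named genes were *Cbfb* and *Runx1* to *Runx3*, the 10 largest called rises and falls without overlap, up to 4 called members of each list or else its most abundant gene, and the 5 largest rises and falls in CPM with an adjusted P under 0.05, besides list members counted in the text where these were 5 or fewer. A further 30 of 146 named genes were chosen after their values were seen. Alternatives were edgeR 4.0.16 (quasi-likelihood, TMM) on recovered reads, other scalings, pseudocounts of 0.1 and 5, other filters and thresholds, a replicate block, unmoderated variances, and each library left out. Promoters came from RefSeq, with 163 called genes matched. Python 3.11.15, pandas 2.3.3, numpy 2.4.6 and matplotlib 3.10.9 were used.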

Additional observations from a re-analysis of the deposited data

Results flagged for a closer look

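The effect of sgCbfb differed between stages for 39 of the genes called in LPs, by limma's interaction of sgCbfb and stage at an adjusted P under 0.05. The count was 12 without moderated variances, 24 without LP sgCbfb replicate 3 and 25 without LP sgControl replicate 2. The interaction is the log2 fold change in Phase 1 cells minus that in LPs, with 3 libraries per group. Among the named genes that rose in LPs it was -4.38 for *Il2ra*, -3.87 for *Rsad2*, -3.60 for *Ifitm3*, -3.52 for *Gm15657*, -2.89 for *Trim30a*, -2.72 for *Nfe2*, -2.56 for *Rtp4*, -2.55 for *Lcp2*, -2.28 for *Kit*, -1.42 for *Hbb-bt*, -1.17 for *Ly6a*, -1.08 for *Armcx4* and -0.99 for *Ifi203*, so that the rise was smaller or turned in Phase 1 cells. Only for *Gas7* among them did it add to the rise, by 2.38. Among the named genes that fell in LPs it was 0.91 for *Ccr9*, 0.94 for *Aff3*, 1.21 for *Tsc22d1*, 1.22 for *Cox6a2*, 1.34 for *Nrgn*, 1.57 for *Lztfl1*, 1.67 for *Irf8*, 1.71 for *Jchain*, 2.07 for *Bcl11a*, 2.12 for *Cdh1*, 2.62 for *Mn1* and 2.72 for *Ly6d*, so that the fall was smaller or turned. Genes named in the report without a call in LPs also had an interaction: -2.08 for *Ifitm2*, -1.23 for *Myb*, -1.18 for *Gbp7*, -0.87 for *Myl10*, 1.69 for *Flt3* and 1.73 for *Runx2*. *Ccr9* went from a mean of 131 to 58.0 CPM with sgCbfb in Phase 1 cells, *Jchain* from 94.3 to 15.3 CPM and *Il2ra* from 371 to 115 CPM. The choice of genes by their change in LPs favours an interaction of this sign, and the cause of these differences was not tested.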

How the results depend on the processing

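Of 98 called named genes, 62 kept direction and call under all 25 alternatives, 36 lost the call under some, and 23 of these with 1 library left out. Of 48 uncalled named genes, 27 gained a call under some. Most of these, such as *Hspa5*, *Myb* and *Notch1*, gained it only with no fold threshold, where calls rise by construction. *Mpo* gained a call with a pseudocount of 5 and with only the 2 groups compared. Among those that gained one with 1 library left out were *Ccnd2*, *Gbp7*, *Itga6*, *Nkg7*, *Rel*, *Vegfa* and *Zeb2*. None of the called genes turned direction under these alternatives. Without moderated variances 18 calls were lost, among them those of *Ahr*, *Gas7* and *Rtp4*. A pseudocount of 0.1 ended the calls of *Ahr*, *Armcx6*, *Il2rb*, *Itgb5*, *Rtp4* and *Smim6*, median-of-ratios scaling those of *Ahr* and *Bcl11a*, no filter on low values those of *Ahr*, *Igtp* and *Rtp4*, a pseudocount of 5 those of *Ahr* and *Igtp*, and only the 2 groups compared that of *Igtp*. The count of lower genes, 79 as reported, was 53 without moderated variances, 119 with only the 2 groups compared in the fit and 125 with no fold threshold, and ran from 59 (without LP sgControl replicate 2) to 119 (without Phase 1 sgControl replicate 3) with 1 library left out. The count of higher genes, 145 as reported, was 94 without moderated variances and ran from 88 (without LP sgCbfb replicate 1) to 182 (without Phase 1 sgControl replicate 3). The count with a stage interaction, 39 as reported, was 12 without moderated variances and ran from 24 (without LP sgCbfb replicate 3) to 55 (without Phase 1 sgControl replicate 3). The 192 genes also called in experiment 2 became 122 without moderated variances and 302 with no fold threshold, and ran from 141 to 237 with a library of experiment 1 left out and from 179 to 190 with one of experiment 2 left out. Without a fold threshold the counts rise by construction. The cause of the other differences was not tested.

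By edgeR on recovered reads 109 genes were lower and 160 higher, 49 had an interaction and 217 were called in experiment 2 too. With a replicate block these were 89, 146, 43 and 197. Same-numbered sgControl and sgCbfb LP libraries shared little: r of their deviations was 0.14, 0.035 and 0.074 across genes, which are not independent replicates. Between libraries of different number r ran from -0.122 to 0.058, and 5 of the LP libraries correlated best with their own number. Median-of-ratios scaling moved the median of all genes by 0.0075 on the log2 scale, and leaving mitochondrial genes and the most abundant gene out of the total by -4e-04. Called members per list, lower and higher apart, were compared under 41 lists and each setting, 2050 comparisons. Of these, 1921 gave a count within 1.5-fold of the reported one, which includes lists without a call in either.

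The log2 fold changes that turned belonged to uncalled genes near 0. With 1 library left out, *Bcl2* ran from -0.07 to 0.08 (0.06 without LP sgControl replicate 1), *Cdk6* from -0.14 to 0.02 (0.01 without LP sgCbfb replicate 3), *Flt3* from -0.26 to 0.11, *Pkm* from -0.07 to 0.18, *Runx2* from -0.25 to 0.09 and *Runx3* from -0.03 to 0.12. For these the cause was not tested.

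Depth limits the low genes: a count of 0 allowed up to 2.14 CPM, and with a mean over 20 CPM needed, 13 of the called named genes were lost. The sort does not select edited cells, so sgCbfb libraries may hold unedited ones, and their share is unknown. The 3′ reads show neither splice forms nor editing, and near copies of genes may exchange reads.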
